A study of Mus musculus with 3 samples.

Results

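Dkk2 and Dkk3 encode secreted Dickkopf proteins of the Wnt pathway. Both were taken by their symbols from the custom panel, where they were 2 of the 125 targets with a molecule in at least 1 library, and both were seen in all 3 libraries. Each was read by 1 amplicon at the 3′ end of its only annotated transcript. Dkk2 (amplicon transcript ENSMUST00000029665.6) has 4 exons and lies on the plus strand of chromosome 3 from 132085292 to 132180304 in GRCm38, and Dkk3 (ENSMUST00000033036.6) has 8 exons and lies on the minus strand of chromosome 7 from 112116017 to 112159057. The last exon of neither gene overlaps another annotated gene.

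Wnt ligands signal through frizzled receptors, and the canonical branch of the pathway also needs the co-receptors LRP5 and LRP6. The Dickkopf proteins DKK1 and DKK2 bind these co-receptors. DKK1 blocks signalling, and DKK2 blocks or promotes it depending on the cell and on the kremen receptors present. DKK3 is the divergent member of the family and its part in Wnt signalling is less settled. In bone, Wnt signals promote the formation of osteoblasts, and Dkk2 has been linked to osteoblast maturation and to growth of blood vessels.

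The study asked which cells of fetal and adult bone marrow (BM) express Wnt pathway genes, by targeted single-cell RNA sequencing of wild-type C57/B6 mice with 1 library per group. E18.5 EC held sorted endothelial cells (ECs) of embryonic marrow. The methods describe the sort by CD31, while the design text of the series names both CD31 and endomucin. Adult BM cells, like E18.5 BM cells, were what remained of the marrow once mature haematopoietic cells had been removed with lineage antibodies, and the age of the adults was not given in the sources used here. Several animals were pooled into each library. Further depletion steps that include CD117 and CD45 are described for adult marrow under whole transcriptome libraries and are not stated for the adult library used here.

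With 1 library per group there was no replicate and no test, and all intervals are 95% intervals that cover counting error alone, exact Poisson for levels, exact binomial for shares and exact conditional binomial for ratios. Stage cannot be told apart from library, preparation and depth. The libraries held 4043 to 12884 cell barcodes and 432987 to 6304495 molecules, with a median of 83 to 242 molecules in the cells kept. Between 38 and 113 barcodes were listed in both libraries of a pair, and leaving them out moved none of the 24 ratios between classes of cells outside its interval. Levels are given as molecules per 10000 panel molecules, and also per cell where a few abundant targets fill a class. They use the molecules left after both error corrections of the authors' pipeline, and the last correction kept 37.2% to 45.1% of the Dkk2 molecules and 57.5% to 69.0% of the Dkk3 molecules. Because each target has its own primers, levels of Dkk2 and Dkk3 were not compared with each other. Cells were grouped into 40 clusters without the use of any Wnt pathway target, 38 of them with at least 50 cells, and named from markers. Clusters with Ptprc, the gene of CD45, in over 50% of their cells were called Ptprc clusters. In the labelled EC library, 3031 of the 4038 cells kept were endothelial-like, with Pecam1 in 100% of them, 983 cells lay in Ptprc clusters and 24 formed a stromal cluster.

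Both genes were sparse. Dkk2 gave 300 molecules in 217 cells of E18.5 BM cells, 48 molecules in 32 cells of E18.5 EC and 134 molecules in 84 cells of Adult BM cells. Dkk3 gave 3254 molecules in 1022 cells, 88 molecules in 53 cells and 2355 molecules in 1224 cells of the same libraries. The level of Dkk2 was 1.63 per 10000 (1.45 to 1.83) in E18.5 BM cells, 1.11 (0.817 to 1.47) in E18.5 EC and 0.213 (0.178 to 0.252) in Adult BM cells. For Dkk3 the levels were 17.7 (17.1 to 18.3), 2.03 (1.63 to 2.50) and 3.74 (3.59 to 3.89). Per 10000 molecules both genes were highest in E18.5 BM cells, where the interval of Dkk2 overlapped that of E18.5 EC. Per cell the order of Dkk3 turned, with 0.297 molecules (0.285 to 0.309) in the adult against 0.253 (0.245 to 0.262) in E18.5 BM cells, and the shares of cells with Dkk3 were 15.4% and 7.96%. Most of the Dkk2 cells had 1 molecule, 152 of 217 in E18.5 BM cells and 61 of 84 in Adult BM cells.

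The genes shared fibroblast-like cells and otherwise lay largely in different cells. Dkk2 was concentrated in arterial-like ECs and in fibroblast-like stromal cells. Dkk3 was concentrated in fibroblast-like cells, in E18.5 mural-like cells and, at a lower level, in adult reticular-like cells. Adult osteoblast-like cells had a Dkk3 level of 1.93, below the 3.73 of all adult cells. Per cell the order turned, with 0.504 Dkk3 molecules in osteoblast-like cells against 0.297 in all adult cells. In E18.5 EC, arterial-like ECs held 60.4% of the Dkk2 molecules and 4.55% of the Dkk3 molecules. In E18.5 BM cells, fibroblast-like cells held 95.7% of Dkk2 and 78.5% of Dkk3, and mural-like cells held 1% and 15.03%. In Adult BM cells, Dkk2 was divided between fibroblast-like cells with 47.8% and arterial-like ECs with 39.6%, while Dkk3 was divided between reticular-like cells with 40.2%, fibroblast-like cells with 27.2% and osteoblast-like cells with 17.2%.

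**Figure D1:**
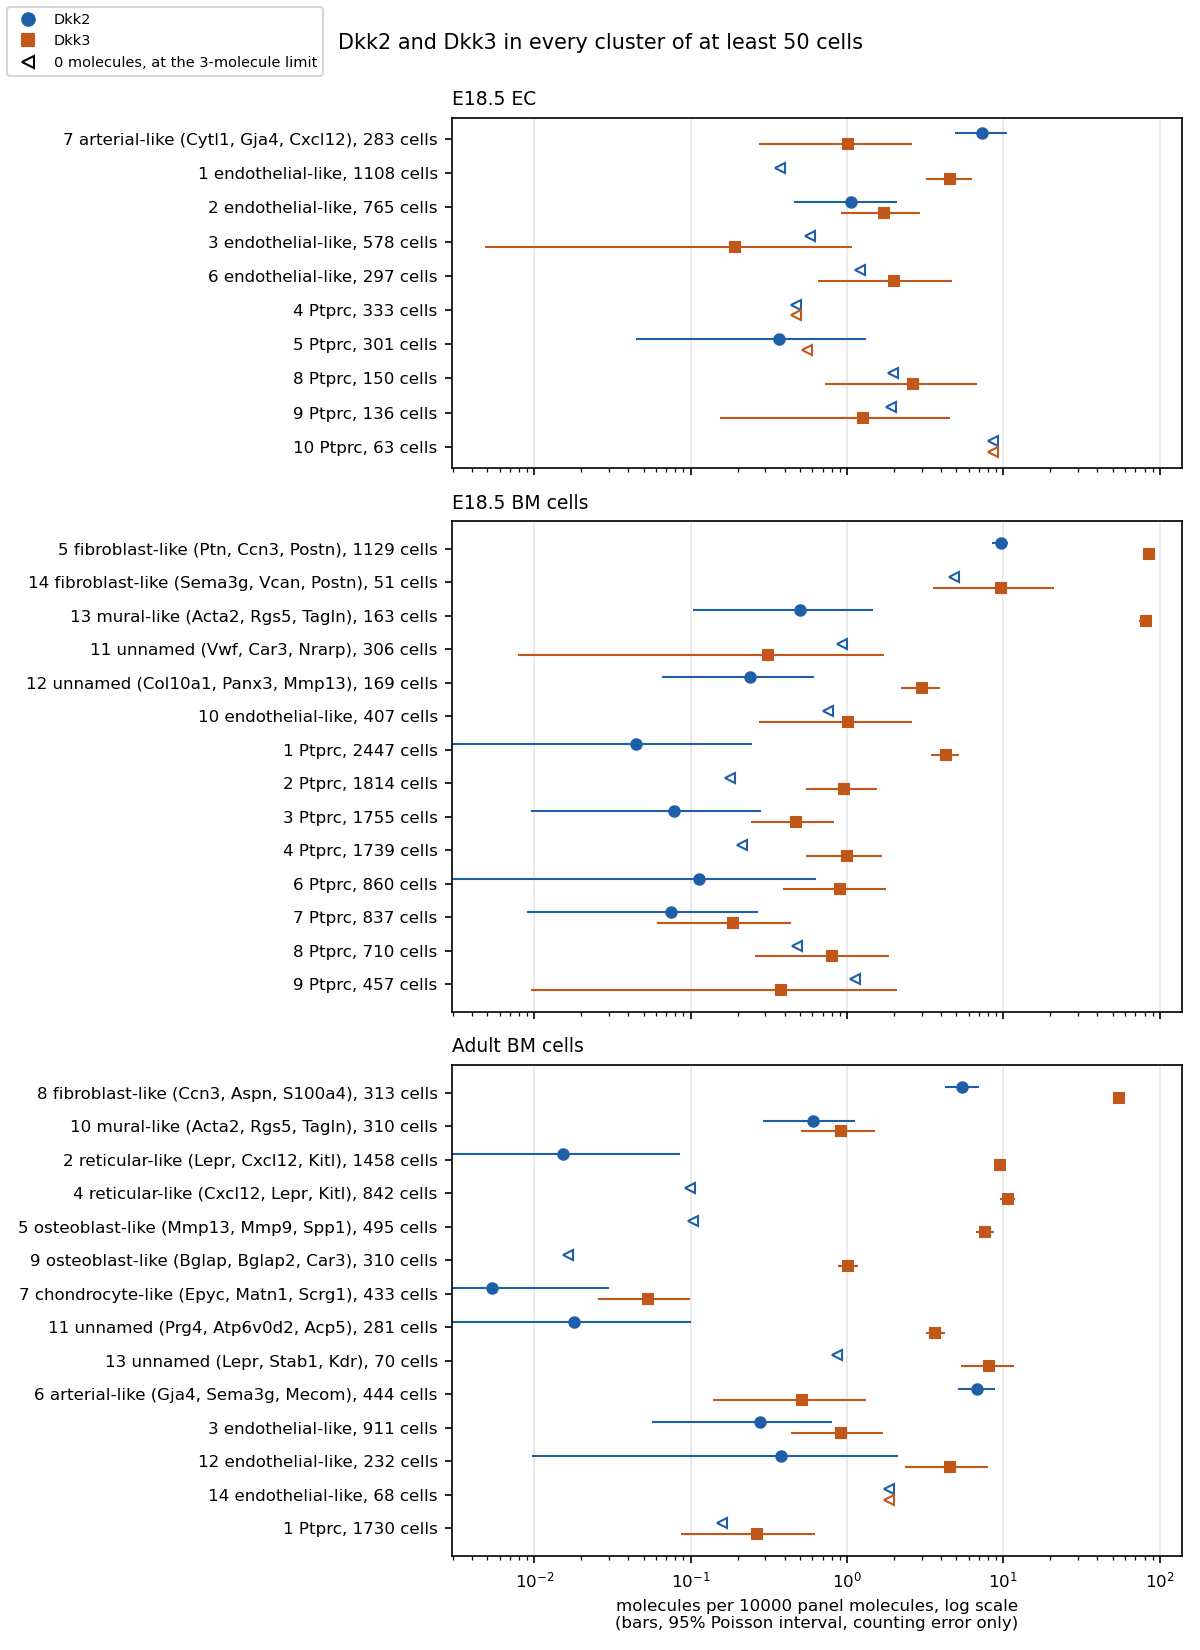
Level of Dkk2 (circles) and Dkk3 (squares) in each of the 38 clusters of at least 50 cells, as molecules per 10000 panel molecules on a log axis, with 95% Poisson intervals and open triangles at the 3-molecule limit where no molecule was seen. Dkk2 stands above 5 per 10000 in 4 clusters, the arterial-like clusters of E18.5 EC and Adult BM cells and 1 fibroblast-like cluster in each of the BM libraries, and Dkk3 stands above 50 in those fibroblast-like clusters and in the E18.5 mural-like cluster.

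Among ECs, Dkk2 followed the arterial subset at both stages. Arterial-like ECs of E18.5 EC (283 cells, led by Cytl1, Gja4, Cxcl12, Sema3g and Hey1) had 29 Dkk2 molecules in 22 cells, a level of 7.32 per 10000 (4.90 to 10.5). The other 2748 endothelial-like cells had 8 molecules in 5 cells, a level of 0.342 (0.148 to 0.675). The level was 21.4-fold higher in arterial-like ECs (9.54 to 54.1). In this comparison 23.0% of targets with at least 20 molecules in both groups together were at least 2-fold higher in the arterial-like cells. Gja4, which encodes the gap junction protein connexin 37 of arterial endothelium, was present in 96.1% of these arterial-like cells.

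Adult arterial-like ECs (444 cells, led by Gja4, Sema3g, Mecom, Stc1 and Hey1) gave nearly the same level of Dkk2, with 53 molecules in 38 cells and 6.80 per 10000 (5.09 to 8.89). The other 1211 adult endothelial-like cells had 4 molecules in 4 cells, a level of 0.265 (0.0722 to 0.678), and the ratio was 25.7 (9.45 to 97.6), with 18.3% of targets at least 2-fold higher. The ratio was 4.78 (2.72 to 8.63) when arterial-like cells were taken from sub-clusters of the adult endothelial-like cells, because 17 molecules lay in a sub-cluster of 159 cells led by Alpl, Acta2, Mgp, Fbn1 and Hey1, which had 2 of the 3 arterial markers needed. Between E18.5 EC and Adult BM cells the arterial-like level of Dkk2 differed by a ratio of 1.08 (0.660 to 1.73), so a difference of either direction within that interval was not detectable at this depth.

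Shares of cells gave the same order. Dkk2 was seen in 7.77% of arterial-like ECs at E18.5 (4.94% to 11.5%) and in 8.56% in the adult (6.13% to 11.6%), against 0.182% and 0.330% of the other endothelial-like cells. Ptprc clusters, taken as the reference for background, had it in 0.203% of 983 cells in E18.5 EC and in 0 of 1730 cells in Adult BM cells, which allows a share of up to 0.173%. Median depths were 119 and 150 molecules in arterial-like cells, 72 and 100 in the other endothelial-like cells, and 121 and 90 in Ptprc clusters. After every cell was thinned to 50 molecules, Dkk2 remained in 2.79% of 251 arterial-like cells at E18.5 (1.13% to 5.66%) and in 2.08% of 433 in the adult (0.955% to 3.91%), against 0.0492% of 2033 and 0.177% of 1132 other endothelial-like cells. Thinning left out 32 and 11 arterial-like cells and 715 and 79 others.

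Splitting the endothelial-like cells by a molecule of 1 target placed Dkk2 with Gja4. In E18.5 EC the 479 cells with Gja4 held 33 of the 37 endothelial Dkk2 molecules, a level of 5.37 per 10000 against 0.189 in the 2552 cells without it. In the adult the 642 cells with Gja4 held 56 of 57 molecules, 5.10 per 10000 against 0.0839. Stab1, a scavenger receptor of sinusoidal endothelium, and Apln, a peptide gene of sprouting and capillary ECs, did not mark Dkk2 in this way. Dkk2 was at 1.18 per 10000 in the 2488 E18.5 cells with Stab1 and at 2.28 in the 543 without. In the adult the levels were 2.24 and 3.29. Most cells with Dkk2 also had a Stab1 molecule, 20 of 27 at E18.5 and 29 of 42 in the adult. Dkk2 was at 0.748 per 10000 in the 1998 E18.5 cells with Apln and at 2.68 in the 1033 without, and at 0.692 and 2.91 in the adult. The Stab1-led cluster of E18.5 EC, with 1108 cells, had no Dkk2 molecule, for which the upper limit is 0.370 per 10000. The adult cluster led by Stab1, Kdr and Apln, with 911 cells, had 3 molecules, 0.276 per 10000.

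**Figure D2:**
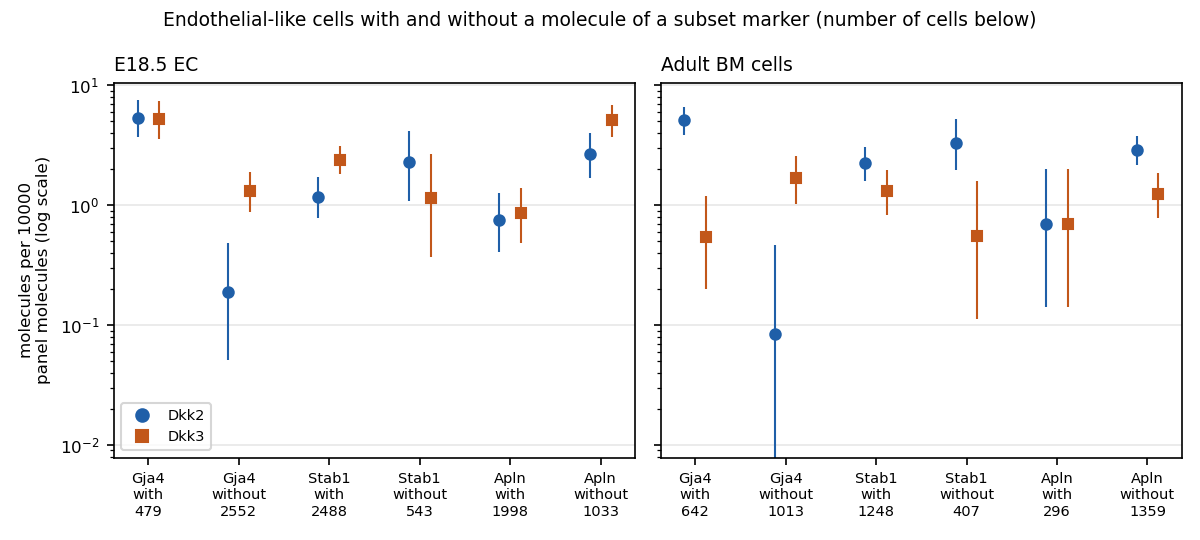
Level of Dkk2 (circles) and Dkk3 (squares) in endothelial-like cells with and without a molecule of Gja4, Stab1 or Apln, in E18.5 EC and Adult BM cells, as molecules per 10000 panel molecules on a log axis with 95% Poisson intervals. Dkk2 stands at 5.37 and 5.10 in cells with Gja4 and at 0.189 and 0.0839 in cells without it. Dkk3 is at 5.21 with Gja4 and 1.32 without it in E18.5 EC, and at 0.547 and 1.68 in the adult.

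The endothelial cells with Dkk2 were deep cells and more often carried a mural transcript. In E18.5 EC, 7 of the 27 endothelial-like cells with Dkk2 had a molecule of Acta2, Rgs5 or Tagln (25.9%, against 4.53% of those without Dkk2), with median depths of 204 and 74 molecules. In the adult 15 of 42 did (35.7% against 19.7%), at medians of 225 and 108. Mural-like cells had Dkk2 at 0.609 per 10000 in the adult and 0.499 in E18.5 BM cells, below the arterial-like level. Pecam1 was in 63.9% of the adult and 6.13% of the E18.5 mural-like cells. All 27 and all 42 of the endothelial-like cells with Dkk2 had Pecam1, and 2 and 0 of them had Ptprc. The part of mural transcripts in the Dkk2 level of arterial-like cells was not tested.

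E18.5 BM cells held few ECs and no Dkk2 in them. Its 407 endothelial-like cells, led by Apln, Kdr and Cdh13, had 0 Dkk2 molecules, which allows up to 0.758 per 10000, and 4 Dkk3 molecules. An arterial sub-cluster of 37 of these cells, led by Mgp, Gja4, Cxcl12, Sema3g and Mecom, had none of either gene, and 0 of 37 cells allows a share of up to 8.11%, so a share like that in the arterial-like cells of E18.5 EC cannot be told apart from none.

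Dkk3 in ECs was low, and its relation to the arterial subset depended on how that subset was drawn. Arterial-like cells had 4 Dkk3 molecules in each of E18.5 EC and Adult BM cells, 1.01 (0.275 to 2.59) and 0.513 per 10000 (0.140 to 1.31). The other endothelial-like cells had 56 and 22 molecules, 2.40 (1.81 to 3.11) and 1.46 (0.913 to 2.21). The ratios of 0.421 (0.111 to 1.14) and 0.352 (0.0882 to 1.04) both had intervals that reached 1, and 27.0% and 36.6% of targets were at least 2-fold lower in the arterial-like cells. The direction at E18.5 was not stable, since the ratio was 2.79 with marker gates in place of clusters and 1.54 with niche factors left out of clustering. Split by Gja4, Dkk3 in E18.5 EC was at 5.21 per 10000 (3.56 to 7.35) with it and 1.32 (0.878 to 1.91) without. In the adult the levels were 0.547 and 1.68. Thinned shares were 0.657% of endothelial-like cells in E18.5 EC (0.368% to 1.08%) and 0.639% in the adult (0.307% to 1.17%). Their intervals overlapped those of the Ptprc clusters, 0.221% (0.0268% to 0.796%) and 0.123% (0.0148% to 0.442%). Shares before thinning overlapped in E18.5 EC but not in the adult. Levels per 10000 were separate in both libraries. Endothelial-like cells of E18.5 EC stood at 2.20 (1.68 to 2.83) and its Ptprc clusters at 0.394 (0.145 to 0.857). Adult endothelial-like cells had a level of 1.14 (0.742 to 1.66), against 0.266 (0.0863 to 0.620) for adult Ptprc cells.

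Within the Stab1-led cluster of E18.5 EC, the 115 cells that also had Gja4 held 24 of the 37 Dkk3 molecules, in 9.57% of those cells, a level of 21.5 per 10000 (13.7 to 31.9). The 993 cells of the cluster without Gja4 had 13 molecules, a level of 1.86 (0.991 to 3.18). Median depths were 91 and 58 molecules, and thinned shares were 5.21% and 0.668%. Neither group had a Dkk2 molecule. One of the cells had 7 Dkk3 molecules. This split was chosen after the values were seen. In the adult, Dkk3 among ECs was most frequent in the cluster led by Vwf, Apln and Pecam1, where 232 cells had 12 molecules, 4.57 per 10000 (2.36 to 7.98). Of the 21 adult endothelial-like cells with Dkk3, 38.1% also had a molecule of Postn, Aspn or Ccn3, against 11.1% of those without it, at median depths of 151 and 110.5. A sub-cluster of 26 adult endothelial-like cells led by Ccn3, Ptn and S100a4 held 8 of the 26 molecules. In E18.5 EC those shares were 18.4% and 19.3%, and the part of fibroblast transcripts was not tested.

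Fibroblast-like cells carried both genes at both stages. The main E18.5 cluster (1129 cells) was led by Ptn, Ccn3, Postn, Aspn and Vcan and the adult cluster (313 cells) by Ccn3, Aspn, S100a4, Vcan and Postn, of which Postn and Aspn encode matrix proteins of periosteum and connective tissue. Together with a second E18.5 cluster of 51 cells, which had 0 Dkk2 and 6 Dkk3 molecules, the E18.5 class had 287 Dkk2 molecules in 206 of 1180 cells, 9.41 per 10000 (8.35 to 10.6). The adult class had 64 Dkk2 molecules in 29 of 313 cells, 5.47 per 10000 (4.21 to 6.99). Of the cells with Dkk2, 143 of 206 had 1 molecule at E18.5, with up to 5 in a cell, and 16 of 29 in the adult, with up to 7.

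Dkk3 was seen in most fibroblast-like cells of both libraries. At E18.5 it gave 2553 molecules in 742 of 1180 fibroblast-like cells (62.9%), with up to 21 in a cell and a level of 83.7 per 10000 (80.5 to 87.0). In the adult it gave 641 molecules in 182 of 313 cells (58.1%), with up to 32 in a cell and a level of 54.8 (50.6 to 59.2). Thinned to 50 molecules the shares were 30.0% of 1156 cells and 20.1% of 309 cells, against 0.741% and 0.123% in the Ptprc clusters of the same libraries, with 24 and 4 fibroblast-like cells left out. Median depths were 233 and 301 molecules, against 89 and 90 in the Ptprc clusters.

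Inside the fibroblast-like class the genes had different maxima. Of the 7 E18.5 sub-clusters, the one led by Acan, Mecom, Igfbp7, Col2a1 and Cdh13 (349 cells) had the highest Dkk3, 130 per 10000, with Dkk2 at 5.55. The sub-cluster with Fbln5, Aspn and Postn among its leading targets (145 cells) had the highest Dkk2, 15.9, with Dkk3 at 99.4, and the one led by Kitl, Notch3, Epyc, Apln and Hey1 (182 cells) had Dkk2 at 13.4 with Dkk3 at 57.7. A sub-cluster with Bglap2, Bglap and Bglap3 in front (191 cells) had the least Dkk3 of the 6 larger ones, 37.9, with Dkk2 at 10.9. The sub-clusters rest on 5 to 1171 molecules of Dkk3 and 0 to 73 of Dkk2. A sub-cluster of 120 cells also had Ptprc in 89.2% and Pecam1 in 49.2% of its cells. The smallest, of 51 cells, had Postn in 100% but Aspn in 3.92% and Ccn3 in 5.88%. Both were kept in the class. In the adult, 37 of the 64 Dkk2 molecules lay in 14 cells of a sub-cluster of 77 cells with Epyc, Cilp, Acan and Cytl1 among its leading targets, at 13.9 per 10000, while the other 3 sub-clusters had 2.45 to 3.42. Adult Dkk3 varied less, from 41.9 to 62.2 over the 4 sub-clusters.

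In the adult, fibroblast-like and arterial-like cells had similar pooled levels of Dkk2, with a ratio of 0.805 (0.550 to 1.18) per 10000. Per cell it was 1.71 (1.17 to 2.51), so that their order depended on the scale. The fibroblast-like molecules lay mostly in the sub-cluster with Epyc and Cilp described above. The top 10 cells held 65.6% of them, against 47.2% for arterial-like cells. Dkk3 was 107-fold higher in fibroblast-like than in arterial-like cells (41.5 to 393), where 42.7% of targets were at least 2-fold higher. Reticular-like cells had 1 Dkk2 molecule in 2300 cells, and the fibroblast-like level of Dkk2 was 526-fold theirs (91.1 to 21092). Dkk3 was 5.56-fold higher in fibroblast-like than in reticular-like cells (5.02 to 6.16), a comparison in which 57.4% of targets were at least 2-fold higher.

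Mural-like cells gave the widest gap between E18.5 and adult. They were led by Acta2, Rgs5, Tagln and Notch3, genes of smooth muscle cells and pericytes, in both libraries. The 163 mural-like cells of E18.5 BM cells had 489 Dkk3 molecules in 105 cells (64.4%), 81.3 per 10000 (74.3 to 88.9) and 3 per cell. The 310 adult mural-like cells had 15 molecules in 11 cells (3.55%), 0.914 per 10000 (0.512 to 1.51) and 0.0484 per cell. Median depths were 304 and 461.5 molecules, so the adult cells were the deeper ones. The ratio was 89.0 (53.4 to 160), or 62.0 (37.2 to 112) per cell, with 41.0% of targets at least 2-fold higher at E18.5. After thinning, Dkk3 was seen in 29.6% of 162 E18.5 cells (22.7% to 37.3%) and in 0 of 309 adult cells, which allows up to 0.971%, with 1 cell left out in each.

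Dkk3 was unevenly spread over the E18.5 mural-like cells. A sub-cluster of 61 cells led by Fbln5, Lepr, Ptn and Vcan had 358 of the 489 molecules, in 54 cells and at 246 per 10000. A sub-cluster of 64 cells led by Cdh13, Tagln, Acan, Acta2 and Gja4 had 119 molecules at 34.8, and 38 cells led by Pecam1, Rgs5, Cxcl12, Nrarp and Notch3 had 12 at 10.5. All 3 carried mural markers, with Acta2 in 93.4% to 100% of cells and Notch3 in 98.4% to 100%, but Rgs5 was in 65.6% of the first and in 100% of the others. The first also had fibroblast targets, Postn at 1570 and Aspn at 691 per 10000. Without that sub-cluster the ratio of E18.5 to adult was 31.4 (18.4 to 57.8), and among mural-like cells without a Ccn3 or Ptn molecule it was 51.2 (21.9 to 146), from 48 molecules in 50 cells against 6 in 260. Both restrictions were chosen after the values were seen.

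Other properties of the mural-like cells differed between the libraries as well. Pecam1 was in 6.13% of the E18.5 cells and in 63.9% of the adult ones, Gja4 in 31.9% and 86.5%, and Postn in 90.8% and 45.8%. Dkk3 stood at 10.8 molecules per 100 of Postn in E18.5 mural-like cells against 1.89 in E18.5 fibroblast-like cells. The adult sub-clusters had Dkk3 from 0 to 3.39 per 10000. Whether these libraries sampled the same kinds of mural cells was not tested.

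Dkk2 did not follow Dkk3 in mural-like cells. There were 3 Dkk2 molecules at E18.5, 0.499 per 10000 (0.103 to 1.46), and 10 in the adult, 0.609 (0.292 to 1.12). Of the adult ones, 7 lay in a sub-cluster of 108 cells led by Vwf, Ccn3, Alpl, Sema3g and Cdh13. Pecam1 was in 100% of the cells of that sub-cluster, at 311 per 10000, and the part of endothelial transcripts was not tested. Within E18.5 BM cells, Dkk2 was 18.9-fold lower in mural-like than in fibroblast-like cells (6.39 to 92.0), while Dkk3 differed by a ratio of 0.972 (0.880 to 1.07), and 54.1% of targets were at least 2-fold lower. Most of that mural-like Dkk3 lay in the sub-cluster with fibroblast targets. The other E18.5 mural-like sub-clusters stood below the Dkk3 level of the fibroblast-like class. Within Adult BM cells, Dkk2 was 8.98-fold lower (4.58 to 19.6) and Dkk3 59.96-fold lower (36.1 to 108), with 52.2% of targets at least 2-fold lower.

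**Figure D3:**
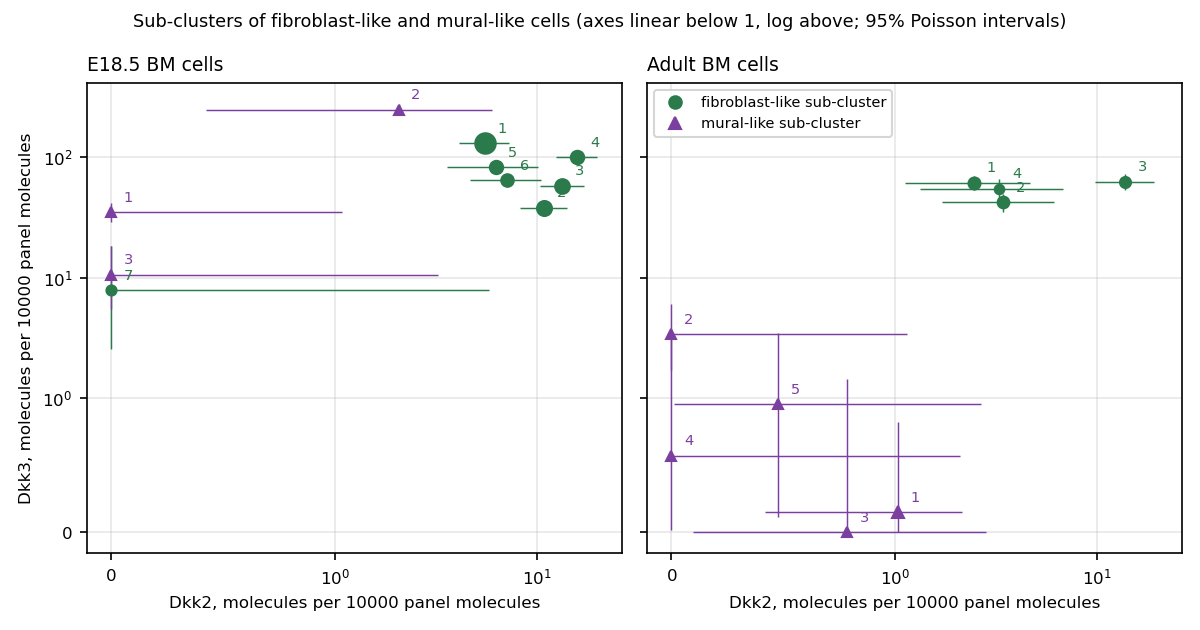
Dkk2 against Dkk3 in sub-clusters of fibroblast-like (circles) and mural-like cells (triangles) of the E18.5 and adult BM libraries, as molecules per 10000 panel molecules, with 95% Poisson intervals, symbol size growing with the number of cells, and axes linear below 1 and log above. E18.5 mural-like sub-clusters stand at 10.5 to 246 for Dkk3 and adult ones at 0 to 3.39, while fibroblast-like sub-clusters stand at 41.9 to 62.2 in the adult and, but for the smallest, at 37.9 to 130 at E18.5.

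Per 10000 molecules, fibroblast-like cells had somewhat more of both genes at E18.5, while per cell both intervals included 1. The classes also differed in their markers. Postn was in 99.8% of the E18.5 and 21.1% of the adult fibroblast-like cells, and Ptn in 95.3% and 13.1%. Aspn was in 87.2% and 88.5%, and Ccn3 in 91.9% and 85.3%. Whether the libraries sampled the same kinds of fibroblast-like cells was not tested. Dkk2 was 1.72-fold higher at E18.5 per 10000 molecules (1.31 to 2.29) and 1.19-fold per cell (0.904 to 1.59), and Dkk3 was 1.53-fold higher (1.40 to 1.67) and 1.06-fold per cell (0.968 to 1.15). The interval of Dkk2 reached past 2-fold, and its ratio was 2.22 with molecules before the last correction (RSEC) and 2.08 with finer clusters (resolution 1.0), while 36.9% of targets were at least 2-fold higher at E18.5. For all stromal-like cells together the ratios were 35.4 for Dkk2 (27.4 to 46.3) and 13.9 for Dkk3 (13.1 to 14.7), with 59.3% of targets at least 2-fold higher. The classes that make up the stromal-like cells differed between the libraries, as 1180 of the 1343 E18.5 cells and 313 of the 3728 adult cells were fibroblast-like. Per cell these ratios were 10.7 and 4.203.

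**Figure D4:**
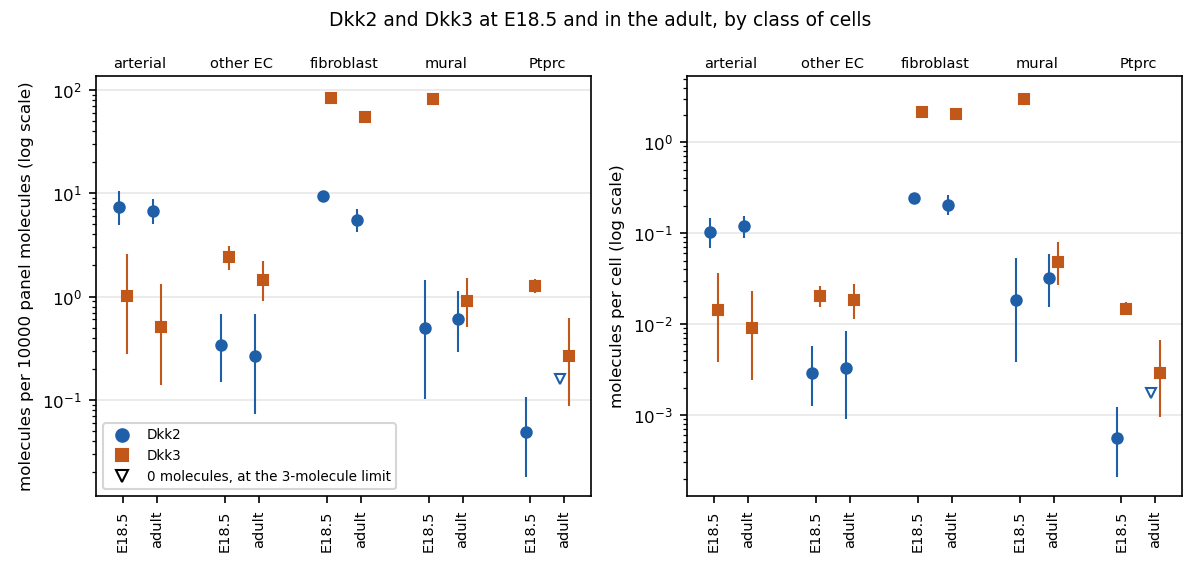
Level of Dkk2 (circles) and Dkk3 (squares) at E18.5 and in the adult in arterial-like ECs, other ECs, fibroblast-like, mural-like and Ptprc cells, per 10000 panel molecules on the left and per cell on the right, on log axes with 95% Poisson intervals. The ECs of E18.5 are from E18.5 EC and the other E18.5 cells from E18.5 BM cells. Dkk3 of mural-like cells is at 81.3 and 0.914 per 10000, the widest step of the plot, and Dkk2 of arterial-like ECs is at 7.32 and 6.80.

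Adult reticular-like cells are the Lepr and Cxcl12 expressing cells of the marrow, and they had Dkk3 at a low level with almost no Dkk2. Their clusters (1458 and 842 cells) had 622 and 325 Dkk3 molecules, 9.48 (8.75 to 10.3) and 10.7 per 10000 (9.53 to 11.9), and 1 and 0 Dkk2 molecules. Dkk3 was in 28.1% of the 2300 cells, and in 4.78% after thinning (3.95% to 5.74%), above the 0.123% of Ptprc cells. Most of its cells, 443 of 646, had 1 molecule.

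Osteoblast-like cells of the adult had no Dkk2 in 805 cells, which allows up to 0.0143 per 10000. The cluster led by Mmp13, Mmp9, Spp1 and Postn (495 cells) had 222 Dkk3 molecules, 7.68 per 10000 and 0.448 per cell. The cluster led by Bglap, Bglap2, Car3, Bglap3 and Col22a1 (310 cells), where Bglap encodes osteocalcin of mature osteoblasts, had 184 molecules, 1.01 per 10000 and 0.594 per cell, at a median depth of 5605.5 molecules. The order of this cluster against the reticular-like cells, at 0.412 per cell, depended on the scale. Chondrocyte-like cells (433 cells, led by Epyc, Matn1, Scrg1, Panx3 and Col10a1) had the lowest Dkk3 of the named stromal and cartilage classes in the adult, 10 molecules and 0.0536 per 10000, 0.0231 per cell, and 1 Dkk2 molecule. No cluster of E18.5 BM cells was called chondrocyte-like, and the unnamed one led by Col10a1, Panx3, Mmp13, Cp and Col2a1 (169 cells) had 50 Dkk3 molecules, 3.002 per 10000, and 4 of Dkk2. An unnamed adult cluster led by Prg4, Atp6v0d2, Acp5, Col22a1 and Cdh13 (281 cells) had 205 Dkk3 molecules, 3.68 per 10000. Another of 42 cells, led by Cilp, Cytl1, Vcan, Mgp and Spp1 with Acan and Sox9 among its leading targets, had 71 Dkk3 molecules, 8.54 per 10000 (6.67 to 10.8) and 1.69 per cell. It had no Dkk2 molecule. A stromal cluster of only 24 cells in E18.5 EC, led by Col22a1, Postn, Aspn, Panx3 and Rgs5, had 9 of the 48 Dkk2 and 22 of the 88 Dkk3 molecules of that library.

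Set against ECs of the same library, stromal-like cells were higher in both genes at E18.5. In E18.5 BM cells 290 Dkk2 molecules in 1343 stromal-like cells stood against 0 in 407 endothelial-like cells, at least 10.5-fold higher at the 3-molecule limit, and Dkk3 was 82.4-fold higher (32.2 to 303), with 51.0% of targets at least 2-fold higher. The Dkk3 ratio ranged from 17.7 to 28.3 with marker gates or with molecules before the last correction. Only 37 of the 407 endothelial-like cells formed an arterial sub-cluster. The Dkk2 level of the stromal-like cells was 7.94 (7.05 to 8.91). In E18.5 EC the Dkk2 level was 1.35 (0.953 to 1.87) in all endothelial-like cells and 7.32 (4.90 to 10.5) in arterial-like ones. In Adult BM cells the genes went opposite ways when all stromal-like classes were pooled. Dkk3 was 5.28-fold higher in stromal-like cells (3.596 to 8.11, with 36.2% of targets at least 2-fold higher). Dkk2 was 11.1-fold lower in them (7.73 to 15.9, with 47.6% at least 2-fold lower). The pooled classes differed in Dkk2. Reticular-like and osteoblast-like cells, 2300 and 805 of the 3728 stromal-like cells, had 1 and 0 Dkk2 molecules. Fibroblast-like cells, unevenly by sub-cluster, had a Dkk2 level of 5.47 (4.21 to 6.99), above the 2.49 (1.89 to 3.23) of all adult ECs. Mural-like cells were below it, at 0.609 (0.292 to 1.12). Over all ECs, E18.5 EC stood at 0.544 of the adult level for Dkk2 (0.349 to 0.837) and at 1.93 for Dkk3 (1.20 to 3.19), where 33.7% of targets were at least 2-fold lower and 25.8% at least 2-fold higher, and neither gene passed 2-fold. The share of arterial-like cells among ECs was not the same in these libraries, 283 of 3031 and 444 of 1655 cells, and for Dkk3 the ratio fell below 1 under 4 alternatives, to 0.947 with RSEC molecules, 0.662 with raw molecules, 0.402 with log values before clustering and 0.612 with niche factors left out of it. Per cell the adult stromal to endothelial ratio of Dkk2 was 0.584 (0.408 to 0.839) and that of Dkk3 was 34.3 (23.3 to 52.6).

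Ptprc clusters were low in both genes. Compared with all other cells of the library, Dkk2 was 12.5-fold lower (3.27 to 106) in E18.5 EC and 100.1-fold lower (45.4 to 275) in E18.5 BM cells. In the adult it was not seen in 1730 Ptprc cells, which allows up to 0.159 per 10000. All other adult cells stood at only 0.219. The adult ratio was thus 0.728 at the 3-molecule limit (interval up to 0.907), and a 2-fold lowering was not shown on this scale. Per cell that ratio was 0.0804. With the libraries in the same order, Dkk3 was 7.43-fold lower (3.27 to 20.8), 40.3-fold lower (34.3 to 47.6) and 14.5-fold lower (6.18 to 44.6). In these comparisons 51.7%, 54.8% and 54.1% of targets were at least 2-fold lower. With marker gates in place of clusters the adult Dkk3 level of cells with Ptprc was 0.724 of that in the other cells, against 0.0692 with clusters. The ratio also rose with molecules before the last correction (RSEC) and with raw molecules, as given at the end, and was 0.00764 per cell. It thus depended on how the cells were named, on the correction and on the scale.

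One large haematopoietic cluster was an exception for Dkk3. The Ptprc cluster of 2447 E18.5 BM cells led by Alpl, Sema3g, Car3, Pecam1 and Nrarp had 96 of the 157 Dkk3 molecules of the Ptprc clusters, 4.27 per 10000 (3.46 to 5.22), against 0.605 (0.463 to 0.777) in the other 8172 Ptprc cells. This was 7.06-fold higher (5.07 to 9.90), where 17.2% of targets were at least 2-fold higher. Thinned shares were 2.14% (1.55% to 2.87%) and 0.308% (0.188% to 0.475%) at median depths of 85 and 90. Postn was at 14.95 per 10000 in this cluster and at 16.3 in the other Ptprc cells, so Dkk3 stood at 28.6 per 100 of Postn against 3.71, and at 1.89 in fibroblast-like cells. Ccn3 was at 5.87 in the cluster against 2.12 and Aspn at 3.07 against 1.91 per 10000, and the part of stromal transcripts was not tested. Dkk2 had 1 and 5 molecules. The cluster was singled out after its values were seen, and no cell type is given to it.

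Cells with both genes were counted in each library, 151 in E18.5 BM cells, 15 in Adult BM cells and 4 in E18.5 EC. Of the E18.5 BM cells with both, 147 were fibroblast-like. In that class Dkk3 was seen in 71.4% of cells with Dkk2 (64.7% to 77.4%) and in 61.1% of cells without it (57.9% to 64.2%), at median depths of 288.5 and 221 molecules, and after thinning the shares were 37.5% and 29.6% with overlapping intervals. In adult fibroblast-like cells they were 44.8% (26.4% to 64.3%) and 59.5% (53.5% to 65.3%). In arterial-like ECs 1 of the 22 Dkk2 cells of E18.5 EC had Dkk3, and none of the 38 in the adult did.

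Across the 38 clusters, which share libraries and differ in depth, the targets with the pattern most like Dkk2 were Wnt9a, a Wnt ligand (Pearson r = 0.67 on log2 of the level plus 1), Aspn (0.62) and Ccn3 (0.61). For Dkk3 they were Fzd2, a frizzled receptor (0.82), Fbn1, the gene of fibrillin in elastic matrix (0.81), and Wnt5a, a ligand of the non-canonical branch (0.80). Dkk2 and Dkk3 were less alike, at 0.39. These are descriptions over 124 targets compared for each gene.

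Other pathway targets were counted beside them. Of the 17 ligands and 8 frizzleds seen in the series, 3 and 7 had enough molecules in the arterial comparison of E18.5 EC, where 2 ligands were at least 2-fold lower and none higher, and 1 frizzled was higher and 2 lower. In the adult 3 and 5 were counted, with 2 ligands and 1 frizzled lower and none higher. Of the R-spondin axis, secreted agonists of Wnt signalling and their receptors, 1 of 6 could be counted at each stage and did not pass 2-fold, and of 11 intracellular targets 10 were counted, with 4 lower at E18.5 and 3 in the adult. Over all targets of these comparisons, 23.0% were higher and 27.0% lower at E18.5, and 18.3% higher and 36.6% lower in the adult.

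Between E18.5 and adult mural-like cells, where Dkk3 differed most, 4 of 6 ligands were at least 2-fold higher at E18.5 and none lower, 3 of 6 frizzleds were higher and 2 lower, and 7 of 10 intracellular targets were higher, where 41.0% of all targets were higher and 33.7% lower. In fibroblast-like cells 2 of 10 ligands were higher and 2 lower, 5 of 8 frizzleds were higher, and 5 of 10 intracellular targets were higher, against 36.9% higher and 25.2% lower over all targets. Rspo2, an R-spondin, was at 23.2 per 10000 in E18.5 and 25.1 in adult fibroblast-like cells, and the ligand Wnt9a at 22.2 and 35.0.

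Dkk1 and Dkk4 were also on the panel. Dkk1 had 65 molecules in Adult BM cells, 4 in E18.5 BM cells and 0 in E18.5 EC, and 64 of the adult ones lay in 36 cells of the Bglap-led osteoblast-like cluster, where Dkk2 had none. Dkk4 had 2 molecules, in E18.5 BM cells. The adult cells with Dkk1 were thus apart from those with Dkk2.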

How the data were processed

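Per the labels and file headers, each library was made by BD Rhapsody targeted capture with a custom mouse panel, and the authors processed the reads with BD Targeted Rhapsody Analysis Pipeline 1.8 against mm10. The deposited counts are molecules per cell barcode and amplicon, raw and after RSEC (recursive substitution error correction) and DBEC (distribution-based error correction), the latter being the main measure here. DBEC molecules were 49.4% to 62.7% of RSEC molecules. The files carry no cell types. Depth per library is in the results, and all comparisons are between classes of cells of 3 libraries with 1 library per group, so no test was made.

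Amplicons were summed per symbol, and cells with under 20 molecules or under 5 targets were left out (5, 40 and 9 cells). Each library was clustered alone without Wnt pathway targets, cell cycle targets, Dkk2 or Dkk3 (63 to 67 targets, 11 principal components, 20 neighbours, links with a Jaccard weight under 1/15 dropped, Leiden resolution 0.5, 10 iterations, seed 1). A cluster was named X-like when X had more markers than any other class among its 10 leading targets by fold and at least 3 markers above the other cells, and sub-clusters came from a second run within a class. No doublet caller was run, and an alternative without cells with molecules of 2 lineages stands in its place. Clusters are named in the text by up to 5 leading targets (some targets are not reported here), likeness was ranked over clusters of at least 50 cells, and pathway lists are given as counts of targets at least 2-fold apart with at least 20 molecules in both groups together. Shares were also computed after thinning to 50 molecules. A gene with 0 molecules is given with the limit of 3 molecules. Dkk2 and Dkk3, the markers and the lists were chosen with earlier results of these data known. Scripts were tested on simulated data. Gene positions are from GENCODE annotation of GRCm38. Alternatives used RSEC or raw molecules, no cell filter, resolution 1.0, 20 principal components, log values before clustering, clustering without niche factors, marker gates and thinning to 100 molecules. Python 3.11.15, numpy 2.4.6, pandas 2.3.3, scipy 1.17.1, scikit-learn 1.9.0, igraph 0.11.9 and matplotlib 3.10.9 were used.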

Additional observations from a re-analysis of the deposited data

How the results depend on the processing

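Of 289 ratios, levels and counts recomputed under an alternative, 225 stayed within the interval of their reported value, 62 moved outside it and 2 of those past 2-fold reversed, and the cause was not tested. Counts of cells with both genes were held to a set fold change in place of an interval. The 2 that reversed were the arterial-like to other ratio of Dkk3 in E18.5 EC, at 1.54 with niche factors left out of clustering and 2.79 with marker gates. Another 8 ratios under 2-fold crossed 1, 4 of them of Dkk3 in ECs between the stages (1.93, with the values below), and the others of Dkk2 (1.08, to 0.858 per cell) and Dkk3 (1.97, to 0.621 with RSEC and 0.420 with raw molecules) in arterial-like ECs and of Dkk2 in mural-like cells (0.819, to 1.08 without cells of 2 lineages). The arterial-like ratio of Dkk2 stayed between 14.2 and 50.2 in E18.5 EC over 12 alternatives, and in the adult moved to 4.78 with sub-clusters. With RSEC and with raw molecules, in that order, the library levels were 1.47 for Dkk2 in E18.5 EC (RSEC alone), 1.55 and 0.814 for Dkk3, 2.27 and 2.20 for Dkk2 in E18.5 BM cells, 16.1 and 12.5 for Dkk3, and 0.305 and 0.274 for adult Dkk2 with 4.04 and 2.90 for adult Dkk3. Cells with both genes numbered 232 at E18.5 and 62 in the adult with RSEC. The stromal to endothelial ratio of Dkk3 was 23.8 and 28.3 (gates 17.7) in E18.5 BM cells, and in the adult 3.20 and 3.10 (20 components 3.08, log values 2.99, gates 2.90, per cell 34.3). For Dkk2 it was at least 7.63 with 20 components at E18.5 and 0.584 per cell in the adult. The Ptprc to other ratio in E18.5 BM cells was 0.0914 and 0.0723 for Dkk2 (resolution 1.0 0.0550, gates 0.0789) and 0.0623 and 0.0640 for Dkk3 (resolution 1.0 0.0613, gates 0.0822, per cell 0.0106, without the cluster led by Alpl 0.0118), and for adult Dkk3 0.489 and 0.494 (gates 0.724, per cell 0.00764). The E18.5 to adult ratio of Dkk3 in ECs was 0.947 and 0.662 (20 components 1.13, log values 0.402, no niche factors 0.612), and that of Dkk2 was 0.896 with gates. In stromal-like cells Dkk3 was at 12.9 with either (without cells of 2 lineages 14.8, 20 components 9.74, log values 9.84, gates 14.8, per cell 4.203) and Dkk2 at 23.9 with 20 components, 23.7 with log values, 47.0 with gates and 10.7 per cell. In fibroblast-like cells Dkk3 was at 1.72 with RSEC, 1.87 at resolution 1.0 and 1.06 per cell, and Dkk2 at 2.22 with RSEC, 2.08 at resolution 1.0 and 1.19 per cell. The mural-like ratio of Dkk3 was 51.2 without Ccn3 or Ptn cells and 31.4 without 1 sub-cluster. The per-cell, sub-cluster, shared-barcode and left-out-cluster alternatives were chosen after seeing the data. No paired analysis was possible because each group had 1 library, and for the same reason no replicate could be left out. Marker gates define no fibroblast-like or mural-like class. Counts of Dkk2 were sparse, with 48 molecules in E18.5 EC.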
